A study of Xenopus tropicalis with 11 samples.

Results

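Chromosomes 3 and 8 of *X. tropicalis* have arms of very unequal length, because their centromeres lie at 10.9% and 14.6% of the chromosome length counted from the end with the lower coordinates. Their bins were chosen by position alone: all 10-kb bins over 5 Mb from both chromosome ends and over 5 Mb from the centre of the Cenp-a-binding region. These limits left 26108 of the 145051 bins of the table, of which 144914 lie on the 10 chromosomes. The short arm held 674 bins on chromosome 3 (5000001 to 11740982 on the v10 assembly) and 1144 bins on chromosome 8 (5000001 to 16440982). Each short arm was set against 2 stretches of its own long arm with the same number of bins. One lay at the same distance from the chromosome end (142131785 to 148872275 on chromosome 3 and 130790803 to 142231784 on chromosome 8). The other lay at the same distance from the centromere (21741474 to 28481964 and 26441965 to 37882946). The rest of the long arm held 11364 bins on chromosome 3 and 9290 bins on chromosome 8.

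The counts came from 11 libraries of XTN-6 cells, a cultured line of the wild-type NXR Nigerian strain. Native chromatin was cut to mononucleosomes with micrococcal nuclease (MNase) and precipitated with an antibody raised against *X. laevis* Cenp-a (replicates 1, 2 and 3), against histone H3 (replicates 2 and 3), against histone H4 (replicate 1) or with IgG (replicates 2 and 3), and input was kept from the precleared chromatin (replicates 1, 2 and 3). H4 of replicate 1 and H3 of replicates 2 and 3 were pooled as bulk nucleosomes (H3/H4), so that antibody and replicate cannot be told apart there. All libraries share one strain, and the study describes the replicates as technical while the labels call them biological, so that p-values may measure technical spread only. The labels also give whole tadpoles at stage NF 20 beside the cell line, and the study's description as a cell line was followed. Total counts ranged from 4053600 (IgG replicate 2) to 229872947 (Cenp-a replicate 3), and the median bin held 24 and 1371 counts in these libraries.

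A chromosome arm reaches from the centromere to the telomere, so the distance from its end falls as the distance from the centromere rises. With a central centromere both arms share the same pairs of distances. A matched comparison of a short with a long arm separates the 2 distances. Cenp-a is the histone H3 variant that replaces H3 in the nucleosomes of active centromeres and marks the place where the kinetochore forms. Outside centromeres a Cenp-a library also holds background nucleosomes, and on the arms its counts are read relative to the digested chromatin kept as input. The windows described here lie over 5 Mb from the centre of the Cenp-a-binding region, and 0 of their bins were called at 5-fold or more in either direction. Over all 144711 bins tested for Cenp-a against input, 77 were called higher and 1 lower at that size.

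On the short arm of chromosome 3, counts per 10-kb bin, scaled to the library's total on the chromosomes (CPM), stood at 8.24, 8.55 and 8.0 in the Cenp-a libraries of replicates 1, 2 and 3, against 9.89, 8.96 and 9.16 CPM in the inputs of the same replicates. Cenp-a was below input in every replicate, and all 3 Cenp-a values were below all 3 input values. Over input, Cenp-a gave log2 ratios of -0.26, -0.07 and -0.20 in the same order of replicates, a mean of -0.18 ± 0.10 (SD, n = 3), which is 0.885-fold. The distal stretch of the long arm gave nearly the same values, with 8.35, 8.72 and 8.18 CPM in Cenp-a against 9.91, 9.20 and 9.34 CPM in input and a mean log2 ratio of -0.17 ± 0.09 (SD, n = 3). The stretch of the long arm as far from the centromere as the short arm stood at 8.27, 8.21 and 8.34 CPM in Cenp-a against 8.02, 8.29 and 8.12 CPM in input, and its log2 ratio was 0.02 ± 0.03 (SD, n = 3). The rest of the long arm had a log2 ratio of 0.04 ± 0.03 (SD, n = 3). The short arm thus stood apart from the long-arm stretch near the centromere and overlapped the stretch near the end.

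Chromosome 8 had a short arm with higher counts, which were 13.9, 15.4 and 14.3 CPM in Cenp-a replicates 1, 2 and 3, against 18.1, 16.8 and 17.5 CPM in input. Replicates 1, 2 and 3 had log2 ratios of -0.38, -0.12 and -0.29, on average -0.26 ± 0.13 (SD, n = 3), or 0.833-fold. All 3 Cenp-a values were again below all 3 input values, and the high level in all libraries comes from a run of high bins described further on. The distal stretch of the long arm had a log2 ratio of -0.16 ± 0.08 and the stretch near the centromere of -0.04 ± 0.01, while the rest of the long arm had 0.04 ± 0.03 (SD, n = 3 each). At the distances of chromosome 3, the short arms of the other 8 chromosomes had mean log2 ratios from -0.19 to -0.11, a range that holds the value of chromosome 3, while that of chromosome 8 lay below it. In each of the 3 replicates the short arm had the lowest ratio of the 4 parts of chromosome 8. On both chromosomes, replicate 1 gave the largest deficit of the short arm and replicate 2 the smallest.

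To test the short arm against the long arm, the log2 ratio of short-arm to long-arm counts was taken within each library, where the scaling between libraries cancels, and Cenp-a was compared with input across replicates. The test was limma with the replicate as a block over 20 contrasts (10 chromosomes, each matched by distance from the end and from the centromere; the distances of chromosome 3 were used for the other 8 chromosomes). At the same distance from the end, the short arm of chromosome 3 differed from the long arm by a log2 value of -0.00 (95% confidence interval -0.04 to 0.03; replicates -0.02, 0.01 and -0.00). At the same distance from the centromere the difference was -0.20 (standard error 0.05, interval -0.34 to -0.06), with -0.31, -0.05 and -0.23 in replicates 1, 2 and 3. On chromosome 8 the difference was -0.10 from the end (standard error 0.02, interval -0.16 to -0.05; replicates -0.15, -0.05 and -0.11). This value moved to -0.02 with medians of bins (adjusted p 0.491, limma) and to -0.055 without a run of high bins described further on. From the centromere it was -0.22 (standard error 0.05, interval -0.35 to -0.09; replicates -0.33, -0.09 and -0.25). In each of these last 3 contrasts Cenp-a was lower in 3 of 3 replicates.

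None of the 20 contrasts passed an adjusted p of 0.05 in limma (0% called), and 10 of the 20 had an unadjusted p under 0.05. The 3 contrasts with a deficit had a Benjamini-Hochberg adjusted p of 0.0519 each (limma), and the fourth, chromosome 3 from the end, had 0.846. The same adjusted p of 0.0519 was reached by 4 contrasts of other chromosomes: chromosome 5 from the end (0.06) and from the centromere (0.05), chromosome 6 from the centromere (-0.06) and chromosome 10 from the centromere (-0.12). The p thus does not set chromosomes 3 and 8 apart. The exact two-sided sign-flip test over 3 pairs cannot give less than p = 0.25, the value of each of the 3. The 3 contrasts were on the other side of the threshold without the replicate block, with adjusted p of 0.0284 for chromosome 3 from the centromere, 0.0453 for chromosome 8 from the end and 0.0147 for chromosome 8 from the centromere (limma), in a fit that called 6 of the 20 contrasts, 3 of them on other chromosomes. Replicate 2, the library with the fewest Cenp-a counts (13576415), gave the smallest differences: without it the values were -0.27, -0.13 and -0.29 and all 3 passed, as did 8 contrasts of other chromosomes, 4 of them below and 4 above 0. Without replicate 1 none passed, at -0.14, -0.08 and -0.17, and without replicate 3 the 2 contrasts from the centromere passed, at -0.18 and -0.21, while chromosome 8 from the end and the contrasts of other chromosomes did not (-0.10 for chromosome 8). Among the other 8 chromosomes the contrast ranged from -0.04 to 0.06 from the end and from -0.12 (chromosome 10) to 0.05 from the centromere. The match from the centromere differs there. Chromosomes 3 and 8 have 1 short-arm window, near the end, for both matches. The other 8 have another short-arm window near the centromere, starting for instance at 77486384 on chromosome 1. On chromosome 10 it starts at 9480492 and overlaps the near-end window, which ends at 11740982. The plot of arm contrasts shows chromosomes 3 and 8 as the lowest 2 in the panel matched by distance from the centromere, where their windows differ in this way. That rank therefore sets unlike windows side by side. On the other 8 chromosomes the near-end window of the short arm had mean log2 ratios from -0.19 to -0.11. Their long-arm window near the centromere had 0.01 to 0.08, and the contrast of these 2 windows was not tested.

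**Figure D1:**
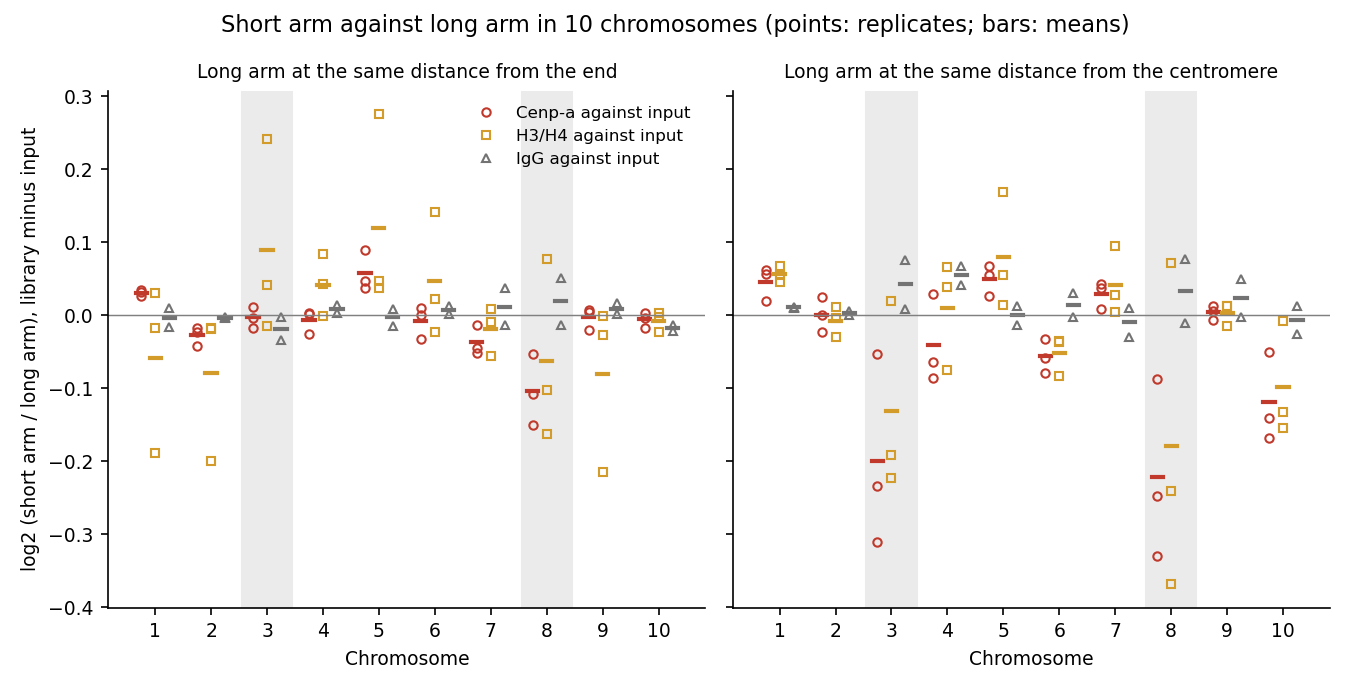
Difference between short and long arm for each of the 10 chromosomes, as the log2 ratio of short-arm to long-arm counts in a library minus that in the input of its replicate; points are replicates, bars are means, and grey bands mark chromosomes 3 and 8. Matched by distance from the centromere, Cenp-a lies at -0.20 on chromosome 3 and -0.22 on chromosome 8, while matched by distance from the end it lies at -0.00 and -0.10. In the match from the centromere, the short-arm window lies near the centromere on the other chromosomes, where on chromosome 10 it overlaps the near-end window. On chromosomes 3 and 8 it is the same near-end window as in the other match.

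Along the arms, the ratio was read in steps of 1 Mb. In chromosome 3, 7 of 7 steps of the short arm had a mean log2 ratio below 0, and 6 of them in all 3 replicates. The lowest step lay 6 to 7 Mb from the end (6000492 to 7000491), at -0.25 ± 0.11, and the highest lay 11 Mb from the end, next to the margin around the centromere (11000492 to 11740982), at -0.03 ± 0.04 (SD, n = 3 each). In that highest step the replicates stood at -0.06, 0.02 and -0.05, on both sides of 0. In chromosome 8, 11 of 11 steps of the short arm were below 0 in all 3 replicates (the last 44 bins next to the margin were too few for a step). The highest step lay 9 to 10 Mb from the end (9000492 to 10000491), at -0.15 ± 0.07, and the lowest lay 14 to 15 Mb from the end (14000983 to 15000982), at -0.30 ± 0.16 (SD, n = 3 each).

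The long arms also started below 0 and left that range only far from the end. On chromosome 3 the first step at or above 0 began 27 Mb from the end of the long arm, with 0.04, after 22 steps below 0. On chromosome 8 it began 28 Mb from the end, with 0.01, after 23 steps below 0. The arms of the other 8 chromosomes had a similar course. Their median log2 ratio was -0.16 in the step from 5 Mb, -0.10 in that from 13 Mb, and first above 0 in that from 30 Mb (0.01). Over the whole long arm, 31 of 127 steps of chromosome 3 and 42 of 116 steps of chromosome 8 were below 0. The short arms end, at the margin around their centromeres, closer to a chromosome end than these distances. The ratios of single steps had standard deviations of 0.04 to 0.16 on the short arms, and the ranges of mean ± SD of neighbouring steps overlapped except between the last step of chromosome 3 and the one before it (-0.20 ± 0.11). Differences between steps were not tested.

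**Figure D2:**
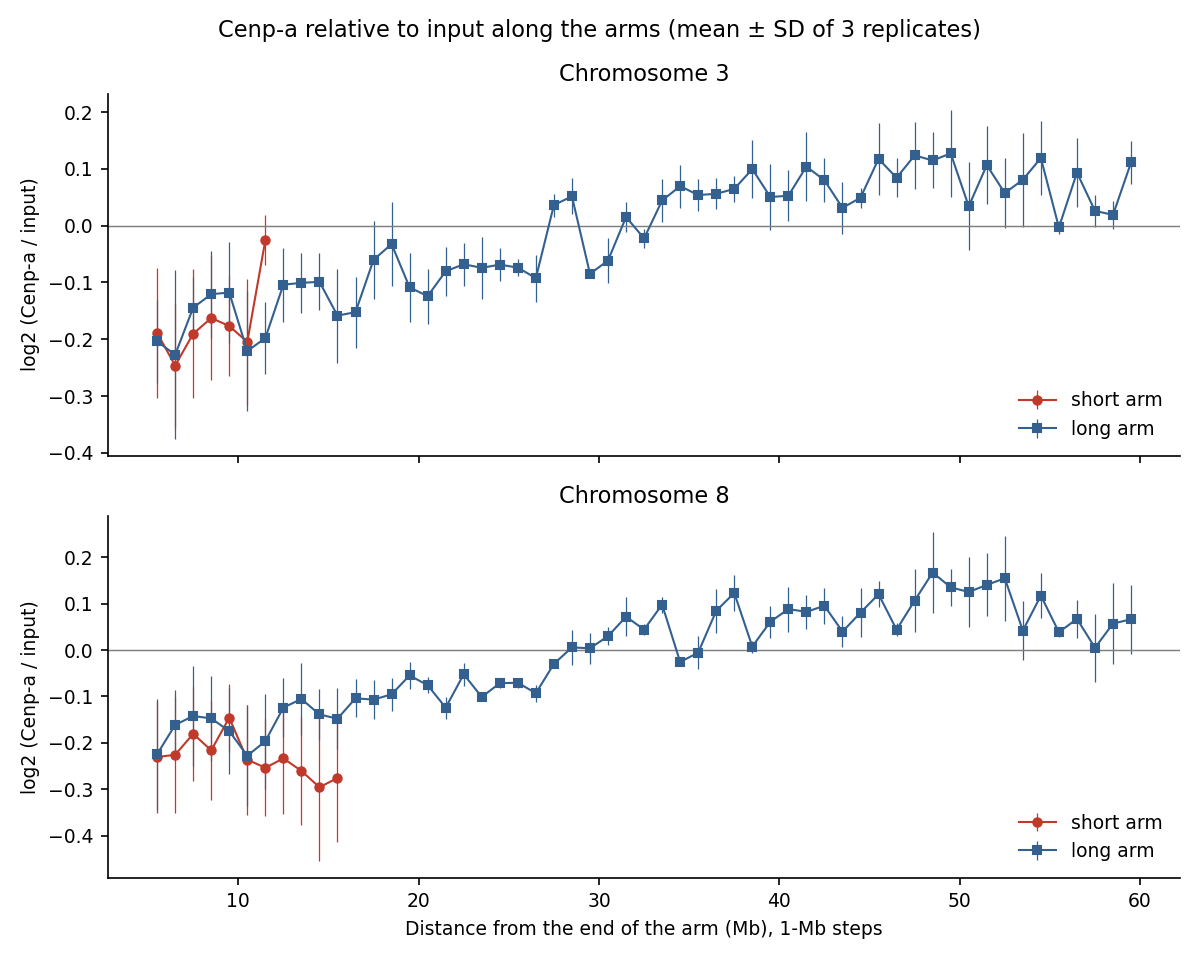
Mean log2 ratio of Cenp-a to input in 1-Mb steps against the distance from the end of the arm, for the short and the long arm of chromosomes 3 and 8 up to 60 Mb; bars are the SD of 3 replicates. The short arms stay below 0 in 7 of 7 and 11 of 11 steps, and the long arms reach 0 at 27 and 28 Mb from the end.

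Single bins were tested by edgeR (quasi-likelihood fit, replicates blocked) with Benjamini-Hochberg adjustment over all 144711 bins tested. Over all bins, 5.47% were called lower in Cenp-a than in input and 3.81% higher (adjusted p under 0.05, no fold minimum). For chromosome 3, 142 of the 672 short-arm bins tested were lower (21.1%) and 8 were higher (1.19%). For chromosome 8, 322 of the 1140 short-arm bins tested were lower (28.2%) and 4 were higher (0.351%). The distal stretches of the long arms were alike in kind, with 156 of 670 bins lower on chromosome 3 (23.3%) and 208 of 1141 on chromosome 8 (18.2%). Near the centromere, the long arm had 12 of 674 bins lower on chromosome 3 (1.78%) and 54 of 1143 on chromosome 8 (4.72%). In the rest of the long arm higher bins outnumbered lower ones, with 752 higher and 240 lower on chromosome 3, and 489 higher and 116 lower on chromosome 8.

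The median log2 fold change over the bins tested was -0.19 on the short arm of chromosome 3 and -0.23 on that of chromosome 8, beside 0.00 over all bins. Of the bins of the 2 short arms, 83.3% and 86.8% lay below 0. At the distances of chromosome 3, the short arms of the other 8 chromosomes had between 9.35% and 15.5% of bins lower, and the same stretch of their long arms between 9.05% and 19.4%. The higher share on chromosomes 3 and 8 was not tested against these, and bins there hold more counts, whose part in these shares was not tested. The counts depend on the tool and on single libraries: DESeq2 called 35 and 122 bins lower on the short arms of chromosomes 3 and 8. Leaving out replicate 1 gave 26 and 99, leaving out replicate 2 gave 255 and 510, and leaving out replicate 3 gave 20 and 58. The lower calls over all bins moved as well, from 7918 to 1965 in DESeq2 and to 1879, 14447 and 1276 without replicates 1, 2 and 3. The differences were small, with 0 bins on chromosome 3 and 4 on chromosome 8 lower by at least 2-fold, where 25 of the 144711 bins tested were.

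**Figure D3:**
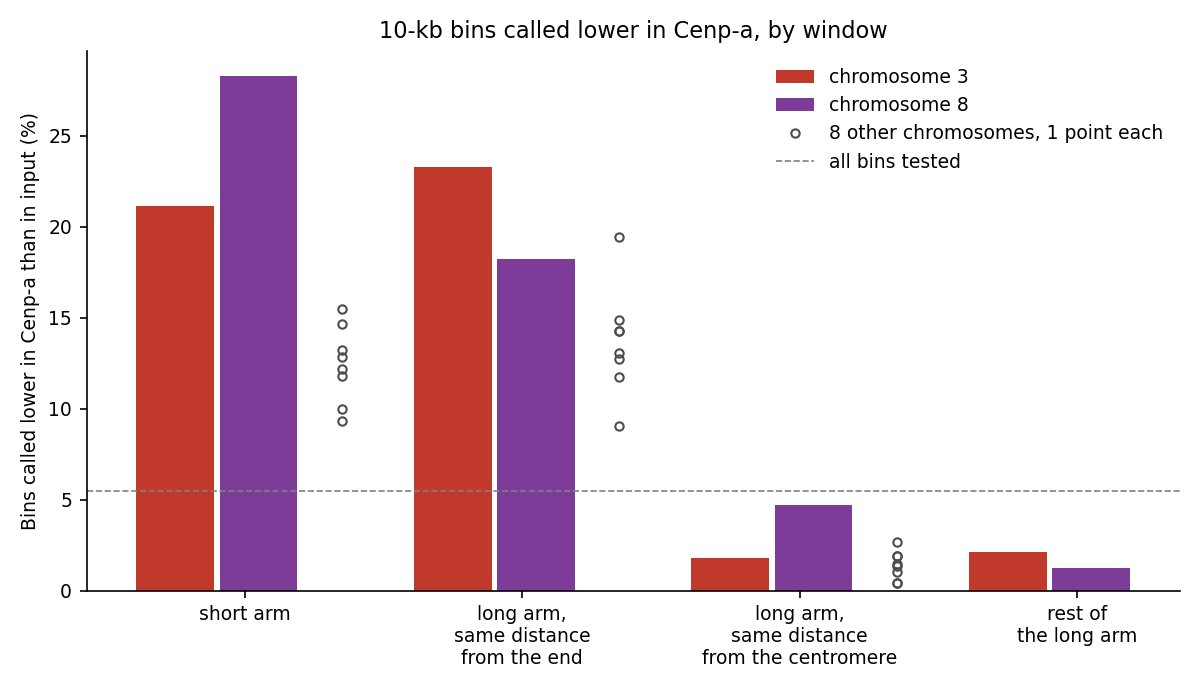
Share of 10-kb bins called lower in Cenp-a than in input (percent of bins tested) in the 4 parts of chromosomes 3 and 8 (bars) and in the same windows of the other 8 chromosomes at the distances of chromosome 3 (points); the dashed line is the 5.47% of all bins tested. The short arms stand at 21.1% and 28.2%, the stretches of the long arms near the centromere at 1.78% and 4.72%.

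Bulk nucleosomes were compared with input in the same way, which asks whether the deficit belongs to Cenp-a libraries. On the short arm of chromosome 3, H4 of replicate 1 and H3 of replicates 2 and 3 stood at 9.14, 9.04 and 8.19 CPM, and their log2 ratios to input were -0.11, 0.01 and -0.16. Chromosome 8 had ratios on its short arm of -0.39, 0.04 and -0.25, so replicate 2 had no deficit on either arm. The difference between short and long arm matched by distance from the centromere was -0.13 on chromosome 3 (interval -0.29 to 0.03) and -0.18 on chromosome 8 (interval -0.44 to 0.08), with an adjusted p of 0.365 for both (limma, 0 of 20 contrasts called and 0 with an unadjusted p under 0.05). Without replicate 2 both passed the threshold, at -0.21 and -0.30. Matched by distance from the end, the difference was 0.09 on chromosome 3 (interval -0.07 to 0.25), with 0.24 in H4 of replicate 1 and 0.04 and -0.01 in H3 of replicates 2 and 3. On chromosome 8 it was -0.06 (interval -0.22 to 0.09).

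Of single bins, 0 on either short arm were called in H3/H4 against input by edgeR, where 0.00415% of all bins were called lower and 0.00415% higher. At an unadjusted p under 0.05 (edgeR), 91 of 671 short-arm bins of chromosome 3 and 297 of 1139 of chromosome 8 were lower, and 13 on each were higher. Over all 144701 bins tested, 10281 were lower and 11763 higher at that p. The distal stretches of the long arms had 230 of 670 bins lower on chromosome 3 and 304 of 1141 on chromosome 8. These counts are thus not particular to the short arms. DESeq2 called 1 bin lower on chromosome 3 and 2 on chromosome 8. Cenp-a against H3/H4 gave differences between short and long arm of -0.09 and -0.07 on chromosome 3 (from the end and from the centromere) and of -0.04 and -0.04 on chromosome 8, with adjusted p from 0.644 to 0.669 (limma, 0 of 20 called and 0 with an unadjusted p under 0.05). From the centromere, the 95% intervals were -0.15 to 0.01 on chromosome 3 and -0.16 to 0.08 on chromosome 8. These comparisons share the Cenp-a, H3/H4 and input libraries with each other, and their values are given side by side only.

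IgG measures unspecific pull-down. Its log2 ratio to input on the short arms was 0.06 and 0.00 on chromosome 3 and 0.09 and -0.01 on chromosome 8 in replicates 2 and 3, and its adjusted p was 0.916 in each of the 4 arm contrasts (limma, 0 of 20 called and 1, on chromosome 4, with an unadjusted p under 0.05). With 2 pairs the exact sign-flip test cannot go below 0.5. IgG replicate 2 held 4053600 counts, which limits its precision.

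The bins with the largest and the smallest called fold change of each window were examined with their annotation (RefSeq genes of the same assembly). On the short arm of chromosome 3, the highest bin (chr3:11350492-11360491) lay over ccnd2, which codes for cyclin D2, a regulator of entry into the cell cycle. It had 14.1, 11.4 and 11.9 CPM in Cenp-a replicates 1, 2 and 3, against 8.55, 7.89 and 7.99 CPM in input, a log2 fold change of 0.61 (standard error 0.10, adjusted p 0.000221, edgeR). The next one (chr3:11300492-11310491) ended just outside the annotated limit of the same gene (11310563 to 11359045), overlapped no gene, and had a log2 fold change of 0.48. Both lay in the step with the highest ratio of this arm. The lowest bin (chr3:7520492-7530491) overlapped the edge of prdm4, which codes for a PR domain zinc finger protein, with 6.75, 6.04 and 7.40 CPM in Cenp-a against 12.5, 9.78 and 10.5 CPM in input and a log2 fold change of -0.68 (standard error 0.10, adjusted p 0.000143, edgeR). The second lowest (chr3:9990492-10000491), at -0.68, lay within slc6a13, a GABA transporter gene, and its input level was 4.93 times that of the median bin of all chromosomes.

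On the short arm of chromosome 8, the highest bin (chr8:12300983-12310982) lay over prrc2b, with 7.74, 7.66 and 6.29 CPM in Cenp-a against 5.09, 4.59 and 5.16 CPM in input and a log2 fold change of 0.50 (standard error 0.11, adjusted p 0.00584, edgeR, and 0.063 without replicate 1). The second highest (chr8:13390983-13400982, over LOC116406642) had 0.35 and an adjusted p of 0.031, and it was no longer called without any one of the replicates or by DESeq2. The lowest bins were chr8:14450983-14460982, with no annotated gene, at -1.07 (standard error 0.22), and chr8:15970983-15980982 at -1.07 (standard error 0.28). The second of these held 30, 10 and 79 counts in Cenp-a replicates 1, 2 and 3 against 70, 38 and 67 counts in input, so it rests on few reads, and DESeq2 gave no adjusted p for either bin. Leaving out replicate 3 ended both calls (adjusted p 0.11 and 0.397, edgeR), and leaving out replicate 1 ended the second (0.099). Both are bins of low input, at 0.338 and 0.165 times the median bin, inside the run of high bins.

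In the rest of the long arms, which hold many more bins to take a highest value from, the highest bins lay over genes at larger fold changes. The highest of chromosome 3 (chr3:41973438-41983437) lay over dusp1, a phosphatase that switches off MAP kinases, with 20.2, 14.0 and 15.4 CPM in Cenp-a against 6.27, 6.62 and 6.55 CPM in input and a log2 fold change of 1.36 (standard error 0.11, adjusted p 1.6e-09, edgeR). The next lay over mat2a, which codes for an enzyme that makes S-adenosylmethionine, at 1.12. On chromosome 8 the highest 2 lay over srsf5, a splicing factor gene, at 1.29, and egln3, a prolyl hydroxylase of the oxygen response, at 1.22. In the stretches near the centromere the highest bins lay over sqstm1 (an autophagy receptor, 0.88) and cxcl14 (a chemokine, 0.84) on chromosome 3 and over hspa5 (the chaperone BiP of the endoplasmic reticulum, 0.76) and crb2 (an apical polarity protein, 0.67) on chromosome 8. In the distal stretch of chromosome 3 they lay over the Hairy/E(spl)-family genes esr-5 (0.69) and hes7.2 (0.54), each with 3 trnag-gcc genes in the same bin. In the distal stretch of chromosome 8 they lay over LOC105948226 (0.50) and pea15 (0.41), whose calls could end on leaving out a replicate (adjusted p up to 0.171 and 0.152, edgeR). The highest values of the distal stretches were thus of the size of those on the short arms. Of these 12 bins, 11 were above input in H4 of replicate 1, 9 in H3 of replicate 2 and 12 in H3 of replicate 3, but they were chosen for a high ratio over the same inputs, and nothing is read from these counts. At srsf5, H4 of replicate 1 had 15.6 CPM and H3 of replicates 2 and 3 had 7.73 and 9.08 CPM. Expression was not measured in this series.

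Of the 8 lowest bins in the stretches of the long arms near the end and near the centromere, 6 overlapped no annotated gene, where 25.1% to 39.7% of all 10-kb stretches of these windows overlap none. Those with a gene lay over anapc13.2, a subunit gene of the anaphase-promoting complex (chromosome 3, -0.65, at an input level of 6.70), and mllt11 (chromosome 8, -0.69). In the rest of the long arm the lowest were 2 bins on chromosome 3 with no gene (chr3:98037857-98047856 at -0.76 and chr3:98017857-98027856 at -0.71), a bin within mdga2, a neuronal cell adhesion gene, on chromosome 8 (-0.86, at an input level of 0.255), and a bin with no gene (-0.64). The first of these was lost without the replicate block (adjusted p 0.236, edgeR). Leaving out a replicate could end the calls of the mdga2 and anapc13.2 bins (adjusted p up to 0.187 and 0.102, edgeR). The same held for a bin without a gene near the centromere of chromosome 8 (chr8:27361965-27371964, up to 0.151, edgeR).

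The longest coding gene of the short arm of chromosome 3 was cacna1c, the pore-forming subunit of an L-type calcium channel, which spans 292 kb (8858090 to 9149875). Its 30 bins had log2 ratios of Cenp-a over input of -0.37, -0.05 and -0.21, a mean of -0.21 ± 0.16 (SD, n = 3), close to that of the arm as a whole. Its counterpart on the short arm of chromosome 8 was LOC101730989, which spans 606 kb (15820595 to 16426988) within the run of high bins, at -0.48, -0.14 and -0.36, a mean of -0.33 ± 0.17 (SD, n = 3). Both genes thus had the arm's deficit in each replicate.

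The input itself differed along these chromosomes. The median bin of chromosome 3 held 1.34 times the input counts of the median bin of all chromosomes and that of chromosome 8 1.32 times, against 0.914 to 0.969 on 7 of the other chromosomes and 1.24 on chromosome 10. Relative to those 7, chromosome 3 stood at 1.42 ± 0.01 and chromosome 8 at 1.39 ± 0.02 in input (SD, n = 3), and the range over all 11 libraries was 1.41 to 1.48 and 1.37 to 1.41. The Cenp-a, H3, H4 and IgG libraries thus had it as well. On chromosome 3 the mean input level of the short arm was 1.58 ± 0.10, against 1.60 in the distal stretch of the long arm and 1.38 near the centromere. On chromosome 8 the mean of the short arm was 2.95 ± 0.14 and its median 1.22 ± 0.07, against means of 1.53 and 1.49 in the 2 stretches of the long arm. Copy number in this cell line, the placement of reads from repeats and the digestion by MNase cannot be told apart in these counts.

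The high mean of chromosome 8 came from a run of 303 bins (13410983 to 16440982, up to the margin around the centromere) whose median bin stood at 6.84 ± 0.24 times the median bin of all chromosomes in input (SD, n = 3). Just before the run the level was 1.26 ± 0.04, and just after it, within 5 Mb of the centromere, 2.74 ± 0.16. All libraries had the run, with levels from 5.36 in H4 replicate 1 to 7.04 in IgG replicate 2. In input, 202 of its 303 bins were above 5 times the median and 68 above 10 times, and 27 were below 0.5 times. The highest bin (chr8:13890983-13900982), with no annotated gene, stood at 62.4 times, with 177, 275 and 243 CPM in Cenp-a against 362, 359 and 388 CPM in input, a log2 fold change of -0.70 (adjusted p 0.00134, edgeR). The highest-input bin of the short arm of chromosome 3 (chr3:8290492-8300491) stood at 7.28 times, also without a gene, at -0.60. The run of chromosome 8 held 118 genes, of which 58 were protein-coding and 58 lncRNA genes, and 0 of the 118 had a symbol other than a LOC number.

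The Cenp-a deficit of the short arm of chromosome 8 was present on both sides of this border. Inside the run the replicates had log2 ratios of -0.41, -0.13 and -0.31, and in the 841 bins outside it -0.31, -0.10 and -0.23. Of the bins tested inside, 122 of 299 were called lower (40.8%), against 200 of 841 outside (23.8%), and the bins inside hold more counts. Leaving out the run, an alternative that was added once the data had been seen, the difference between short and long arm was -0.055 from the end and -0.17 from the centromere, each with an adjusted p of 0.0413 (limma, 7 of 20 contrasts called, 4 of them on other chromosomes). The difference from the end was thus smaller without the run, at -0.055 against -0.10 with it.

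**Figure D4:**
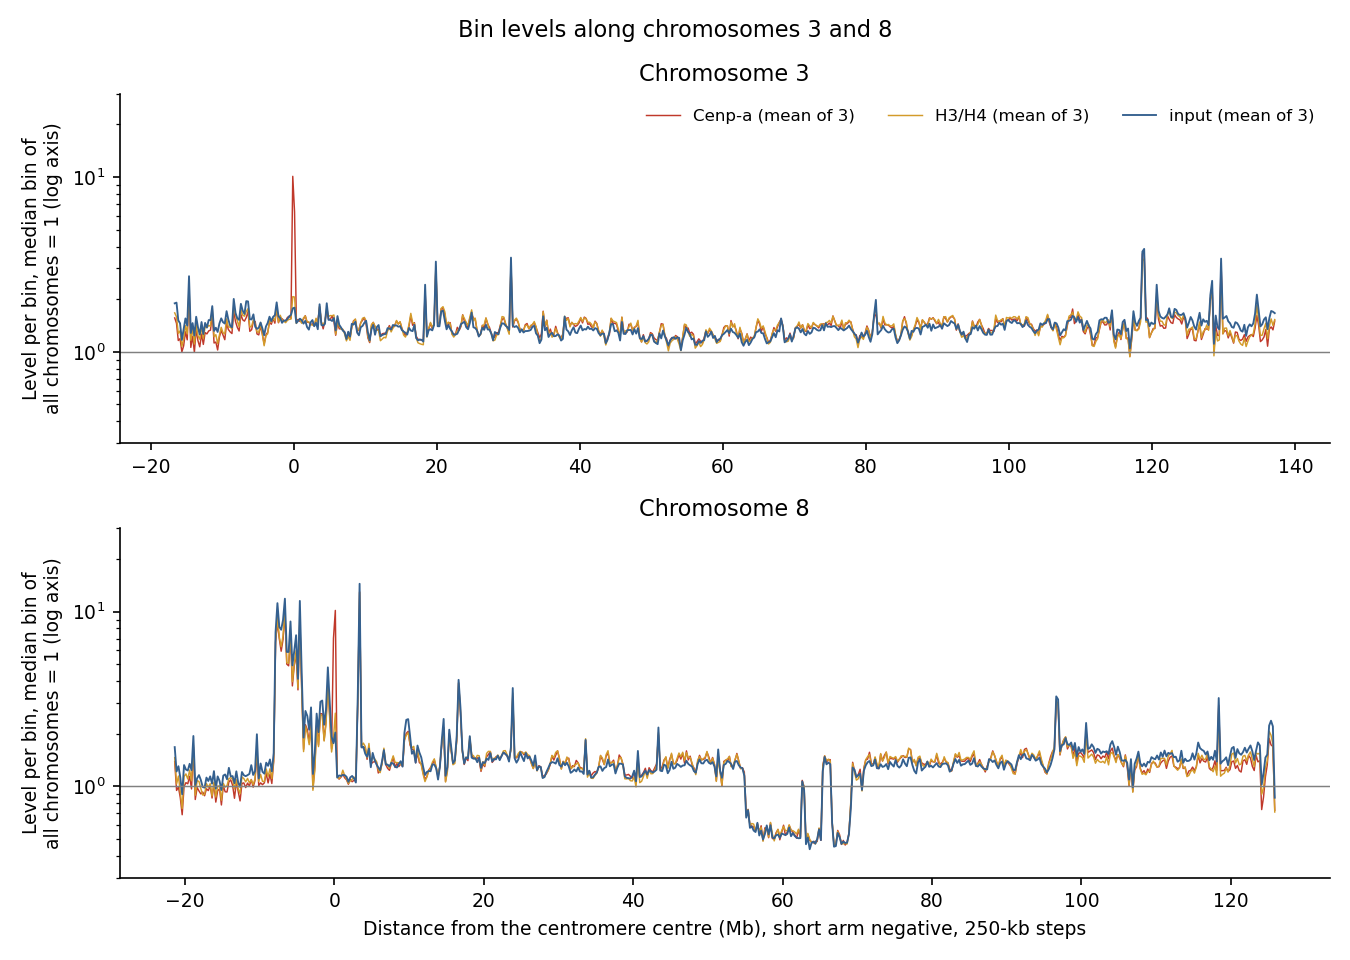
Level per bin in 250-kb steps along chromosomes 3 and 8, relative to the median bin of all chromosomes (1 on a logarithmic axis), against the distance from the centromere, with the short arm at negative distances; lines are the means of 3 Cenp-a, 3 H3/H4 and 3 input libraries. Chromosome 8 has a run near 6.84 on the short arm and 3 runs between 0.459 and 0.511 on the long arm in all kinds of library, and the peak of Cenp-a alone at 0 is the centromere.

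The long arm of chromosome 8 had 3 runs of low input, 55.1 to 69.2 Mb from the centromere, which together cover 12.5 Mb. They reached from 76496384 to 83976874 (0.511 ± 0.01 times the median bin of all chromosomes), from 84346875 to 86726874 (0.472 ± 0.01) and from 87987366 to 90597365 (0.459 ± 0.02; SD, n = 3 each). The level before the first run was 1.23 and after the last 1.19, and the 126 bins between the second and the third run stood at 1.36 ± 0.03. Relative to the median bin of chromosome 8, the runs stood at 0.388, 0.359 and 0.349, and relative to the median of the 7 other chromosomes at 0.541, 0.50 and 0.486. Over all 11 libraries the lowest and the highest level was 0.497 and 0.554 in the first run and 0.417 and 0.481 in the last. The runs held 276 annotated genes, 249 of them protein-coding, among which are ryr1, the calcium release channel of skeletal muscle, the synaptic adhesion gene nrxn3, foxn3, the thymocyte transcription factor gene bcl11b and dicer1, which cuts precursors of small RNAs.

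The Cenp-a ratio did not follow this fall in input. The 3 runs had mean log2 ratios of Cenp-a over input of 0.05, 0.05 and 0.04, as in the rest of the long arm outside them (0.04 ± 0.03, SD, n = 3). Of 1246 bins tested in the runs, 33 were called higher in Cenp-a (2.65%) and 11 lower (0.883%). Over all bins tested the shares were 3.81% and 5.47%. Bins in the runs hold fewer counts, whose part in these shares was not tested. High input stood beside low ratios in some places: the mean deficit was larger inside the raised run than outside it in 3 of 3 replicates. On chromosome 3 the windows with a deficit had mean input levels of 1.58 and 1.60, against 1.38 in the stretch near the centromere. The highest-input bins of the short arms of chromosomes 3 and 8 (7.28 and 62.4) had log2 fold changes of -0.60 and -0.70. These bins and the raised run were chosen by high input, the reference of the ratio, which can itself favour a low ratio. Other places, also picked, did not have this pattern. The lowest called bins of the short arm of chromosome 8 had low input, at 0.338 and 0.165. They were chosen for a low ratio, and the second rests on few reads. On chromosome 4, the short-arm stretch near the centromere had a mean input level of 2.12, a median of 1.11 and a log2 ratio of 0.01. The part of the input level in the Cenp-a deficit was not tested.

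The arms also differed in gene content. The short arm of chromosome 3 held 154 protein-coding genes (22.8 per Mb), against 236 in the distal stretch of the long arm (35.01 per Mb), 112 in the stretch near the centromere (16.6 per Mb) and 15.2 per Mb in the rest. The short arm of chromosome 8 held 202 (17.7 per Mb), against 258 (22.6 per Mb), 151 (13.2 per Mb) and 17.2 per Mb. On both chromosomes the short arm thus had fewer coding genes than the distal stretch of the long arm and more than the stretch near the centromere. In the other 8 chromosomes the short arm at the distances of chromosome 3 held 8.90 to 42.7 coding genes per Mb, a range that includes both.

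The distal stretch of the long arm of chromosome 3 stood apart by its tRNA genes, which number 533 (79.1 per Mb), against 22 on the short arm (3.26 per Mb) and 0 near the centromere; in the windows of the other 8 chromosomes the highest density was 23.6 per Mb. The short arm of chromosome 8 had 0 tRNA genes and 76 lncRNA genes, of which 58 lay in the raised run (19.1 per Mb). The other 18 lay outside it at 2.14 per Mb, against 2.01 and 2.62 per Mb in the 2 stretches of the long arm. Protein-coding genes without a symbol of their own (LOC numbers) made up 21.43% on the short arm of chromosome 3 and 50.5% on that of chromosome 8. Families were counted by gene symbol, so genes with LOC numbers were assigned to none. By symbol, the short arm of chromosome 3 held 6 solute carrier genes and that of chromosome 8 held 2. Neither held a gene with a zinc finger (znf), olfactory receptor or histone symbol. Gene density and the Cenp-a ratio both differed between the windows, and their relation was not tested.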

How the data were processed

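The deposited values are raw counts of read pairs or reads per non-overlapping 10-kb bin in 11 libraries. Per the labels and the study's methods, the authors trimmed reads with Trimmomatic 0.39, aligned them with minimap2 2.17-r941 to the v10 genome, sorted them with SAMtools 1.9 and counted them with deepTools 3.3.0 at a mapping quality of 0 or more, so that reads from near-identical repeats can be placed in any copy. The files of single samples hold the same values as the table of all libraries. The members and lists were chosen with earlier results of these data known.

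Library size was the total on the chromosomes. Centromere centres of chromosomes 3 and 8 were given, and those of the other 8 were the 50-kb run with the highest ratio of Cenp-a to input (0.1 CPM added to both). Arm contrasts were fitted with limma 3.58.1 over 20 contrasts, and single bins (10 counts or more in 50% or more of a comparison's libraries) with edgeR 4.0.16 (glmQLFit, robust) in R 4.3.3. Replicates were blocked in both, following the study's ratios of ChIP to input within a replicate. Calls used a Benjamini-Hochberg adjusted p under 0.05. Standard errors of bins were taken from the fold change and F. Runs of raised or lowered input were stretches of at least 1 Mb whose running median of 21 bins was above 2 or below 0.75 times the median bin of all chromosomes; they were defined after the data were seen. Tests were tried on simulated data. Named bins were the 2 highest and 2 lowest called bins of each window, all bins over 5-fold (0 here), the highest-input bin and the extreme 1-Mb steps of each short arm, with overlapping genes, and the longest coding gene of each short arm. Gene limits came from RefSeq for UCB_Xtro_10.0. Alternatives were TMM, DESeq2 1.42.0, no filter, no block, 2-fold and 5-fold minimums, medians of bins, a filter on input, a 6 Mb margin and leaving out each replicate.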

Additional observations from a re-analysis of the deposited data

How the results depend on the processing

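Of the Cenp-a arm contrasts with a deficit (chromosome 3 from the centromere, chromosome 8 from the end and chromosome 8 from the centromere), the values were -0.21, -0.10 and -0.21 with a 6 Mb margin (adjusted p 0.0478 each, limma), -0.20, -0.10 and -0.22 with no replicate block (0.0284, 0.0453 and 0.0147), and -0.20, -0.055 and -0.17 without the runs of raised or lowered input (0.0413 each; this alternative was added after the data had been seen). All of these passed the threshold that the reported values missed, in fits that called 4, 6 and 7 of the 20 contrasts. Of these calls, 1, 3 and 4 were on other chromosomes. With medians of bins none of the 3 contrasts passed, 1 contrast of another chromosome did, and chromosome 8 from the end was -0.02. With bins filtered on input (0.5 to 2 times the chromosome median), 0 of the 20 contrasts were called. The contrast of chromosome 3 from the end changed sign between alternatives, from -0.04 to 0.05, and was never called. Leaving out each replicate gave -0.27 to -0.14, -0.13 to -0.081 and -0.29 to -0.17 for the 3 contrasts. For H3/H4 from the centromere the same gave -0.21 to -0.087 on chromosome 3 and -0.30 to -0.085 on chromosome 8, with a call only without replicate 2 (adjusted p 0.0480 and 0.00299). The cause was not tested. Deviations from group means of same-numbered libraries correlated across bins at -0.04 to 0.13 between Cenp-a and input, where different numbers gave -0.21 to 0.14. Between Cenp-a and H3/H4 they correlated at 0.16 to 0.22, where different numbers gave -0.18 to -0.03. Deviations from a mean of 3 libraries sum to 0, so the negative values of different numbers are partly built in and are tied to the positive ones. Cenp-a and H3/H4 libraries of the same number thus correlated weakly, while pairing with input did not show in every replicate. IgG was not part of this comparison. Without the replicate block, 0 of 20 contrasts of Cenp-a against H3/H4 were called, as with it.

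Called bins of the short arms (Cenp-a against input) numbered 4 higher and 35 lower on chromosome 3 and 2 higher and 122 lower on chromosome 8 in DESeq2. At least 2-fold, they numbered 0 and 0 on chromosome 3 and 0 and 4 on chromosome 8, and at least 5-fold 0 in each. Over all bins, 130 higher and 25 lower calls were at least 2-fold, and 77 and 1 at least 5-fold. Leaving out each replicate gave 2 to 13 higher and 20 to 255 lower on chromosome 3 and 0 to 10 higher and 58 to 510 lower on chromosome 8. Over all bins, the main counts of 5508 higher and 7918 lower were 1296 and 1965 in DESeq2. For H3/H4, DESeq2 called 1 bin lower on chromosome 3 and 2 on chromosome 8, and leaving out each replicate gave 0 to 5 higher and 0 to 55 lower on chromosome 3 and 0 to 2 higher and 0 to 223 lower on chromosome 8. Over all bins H3/H4 had 6 higher and 6 lower calls, against 57 and 179 in DESeq2 and 5066 and 5314 without replicate 2. Of 219 fits of 32 named bins, 0 reversed and 19, in 10 bins, lost the call (DESeq2 gave no adjusted p for 5).

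The input level of the short arm of chromosome 8 was 1.22 as a median of bins, 1.21 with bins filtered on input and 2.75 with a 6 Mb margin. The long arm of chromosome 3 near the end stood at 1.48 by both of the first 2, near the centromere at 1.34, 1.36 and 1.36 by the same 3, and that of chromosome 8 near the centromere at 1.35 and 1.41 by the first 2. The number of replicates and the depth of Cenp-a replicate 2 and IgG replicate 2 limit the precision, and copy number, read placement and digestion cannot be told apart in input.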
